A study of Mus musculus with 20 samples.

Results

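The genes of inhibitory signalling through γ-aminobutyric acid (GABA) and the genes that mark GABA-releasing interneurons were followed in RNA-seq data of the mouse hippocampus. The set holds 28 genes in 3 classes, 5 for the synthesis, transport and breakdown of GABA, 12 for GABA receptors and their scaffold, and 11 interneuron markers. A listed gene was kept when at least 5 libraries had 10 or more counts of it, and all 28 listed genes met this in 20 of 20 libraries, out of 47729 gene identifiers in the count table. All 28 also passed the filter on low counts and belonged to the 16692 genes tested.

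The mice were male and of the C57BL/6 strain, and the labels name no transgene or drug in any group. The 24mEE group was 24 months old and had lived in enriched cages, which held running wheels, platforms to climb and tunnels, for the last months before sampling. The 24mSC group was 24 months old and stayed in standard cages, the 5mEE group was 5 months old and enriched, and the 5mSC group was 5 months old in standard cages. Each group had 5 libraries, and the methods of the study describe no enriched mice of 5 months. How long the 5mEE mice were enriched is therefore not known and may differ from 24mEE. The paper describes RNA isolated from each sample individually, but the labels do not say that the libraries came from separate mice. The p-values therefore judge differences against the spread between these libraries. RNA came from whole hippocampus, so that fewer cells of a type and less RNA per cell cannot be told apart.

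GABA is made from glutamate by the glutamic acid decarboxylases, loaded into vesicles by a vesicular transporter, taken up again by membrane transporters and broken down by GABA transaminase. GABA-A receptors are chloride channels assembled from α, β and other subunits, whereas GABA-B receptors are G protein-coupled pairs of a ligand-binding and a trafficking subunit. In the hippocampus, interneurons are sorted into types by the calcium-binding protein parvalbumin, by neuropeptides such as somatostatin, VIP, NPY and CCK, and by factors such as reelin and Lhx6, and the types differ in the cells and cell parts they contact.

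The lowest count of any of the 28 genes in any library was 66, for Lhx6. The smallest library held 10.963 M counts and the largest 34.107 M (M, mega), and levels are given in CPM, counts per M counts after TMM scaling. The library 5mSC replicate 3 had the lowest total, and 26.8% of its counts were mitochondrial ribosomal RNA, against 0.883 to 1.82% in the other 19 libraries. It was the lowest of the 20 libraries for 19 of the 28 genes, whereas it was lowest for 31.4% of all genes tested. The library 5mSC replicate 1 also stood apart over all genes tested, being lowest for 15.2% and highest for 15.7% of them. Of the 28 genes it was lowest for 3 and highest for 4. The library 5mEE replicate 3 was highest for 9 of the 28 genes, against 3.18% of all genes tested. Because 5mSC replicates 1 and 3 stood apart, each comparison with 5mSC is given with all 20 libraries and without these 2 (18 libraries). The spread was estimated over all 4 groups in 1 model, so these 2 libraries also enter the SE and intervals of comparisons without 5mSC. In 24mEE against 24mSC the median SE of the log2 fold change over the 28 genes was 0.155 with 20 libraries and 0.0856 with 18. The biological coefficient of variation across genes was 17.4% with 20 libraries and 9.88% with 18.

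**Figure D1:**
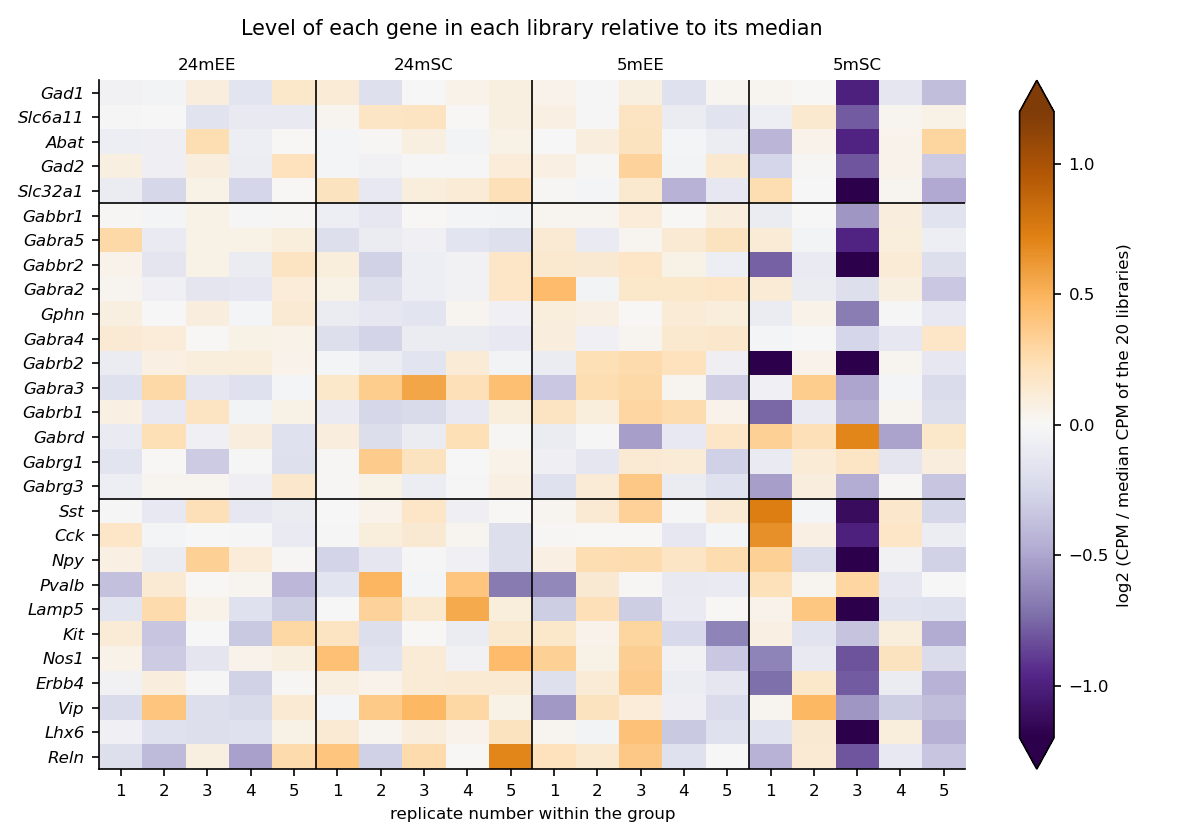
Each of the 28 genes (rows, in 3 classes) in each of the 20 libraries (columns, by group and replicate number), as the log2 of its CPM over the median CPM of the 20 libraries; purple is lower and orange is higher. The column of 5mSC replicate 3 is purple for most genes, down to −1.53 for Slc32a1, while Gabrd is at 0.70 there, and in 5mSC replicate 1 Gabrb2 lies at −2.02.

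None of the 28 genes passed edgeR's quasi-likelihood test at an adjusted p under 0.05 in any of 5 comparisons. In 24mSC against 5mSC, the comparison of age in standard cages, 0 of the 28 genes passed beside 0.803% of all genes tested. In 24mEE against 24mSC, enrichment at 24 months, 0 passed beside 0% of all genes, and in 5mEE against 5mSC, enrichment at 5 months, 0 passed beside 0%. In 24mEE against 5mEE 0 passed beside 0.108%, and for the interaction, the enrichment effect at 24 months minus that at 5 months, 0 passed beside 0%. The 18-library fit likewise called 0 of the 28 genes in all 5 comparisons, beside 2.14, 0.059, 0, 0.572 and 0.0059% of the genes it tested, in the same order. The Wald test of DESeq2 also called 0 of the 28 in each, beside 4.55, 0.186, 0.18, 0.234 and 0.0359% of all genes. In limma-voom with sample quality weights 1 of the 28 passed, Gabra4 in 24mEE against 24mSC, beside 2.27% of all genes. Without 5mSC replicate 2, 3 of the 28 genes passed in 24mSC against 5mSC, Gabra3, Reln and Erbb4, beside 6.67% of the genes tested in that fit. That fit kept 5mSC replicates 1 and 3.

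At an unadjusted p under 0.05, 4 of the 28 genes were counted for 24mSC against 5mSC (14.3%, against 20.5% of all genes), all 4 of them higher in 24mSC. For 24mEE against 24mSC the count was 3 (10.7%, against 6.21% of all genes), and for 5mEE against 5mSC it was 11 (39.3%, against 16.5%), all 11 higher in 5mEE. For 24mEE against 5mEE it was 1 (3.57%, against 4.61%) and for the interaction 5 (17.9%, against 8%). With 18 libraries the first 3 of these counts were 1, 8 and 4 genes (3.57, 28.6 and 14.3%, against 20, 13.8 and 6.72% of all genes). The other 2 were 1 gene (3.57%, against 11.5%) for 24mEE against 5mEE and 2 genes (7.14%, against 9.3%) for the interaction.

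The signs of the fold changes in the comparisons with 5mSC also depended on replicates 1 and 3. In 5mEE against 5mSC, 24 of 28 fold changes were positive with a median log2 value of 0.19 in the 20-library fit, and 19 of 28 with a median of 0.09 in the 18-library fit. In 24mSC against 5mSC they numbered 23 of 28 with 20 libraries (median 0.175) and 20 of 28 with 18 (median 0.08). Over all genes tested the medians lay between −0.02 and 0.01. Of 6 general neuron markers, 6 were positive in 5mEE against 5mSC (median 0.145) and in 24mSC against 5mSC (median 0.188). With 18 libraries 5 of the 6 were positive in each, with medians of 0.055 and 0.075. Of 7 astrocyte markers 6 and 5 were positive with 20 libraries, and of 4 endothelium markers 1 and 2, in the same order. What these lists share with the 28 genes was not tested.

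**Figure D2:**
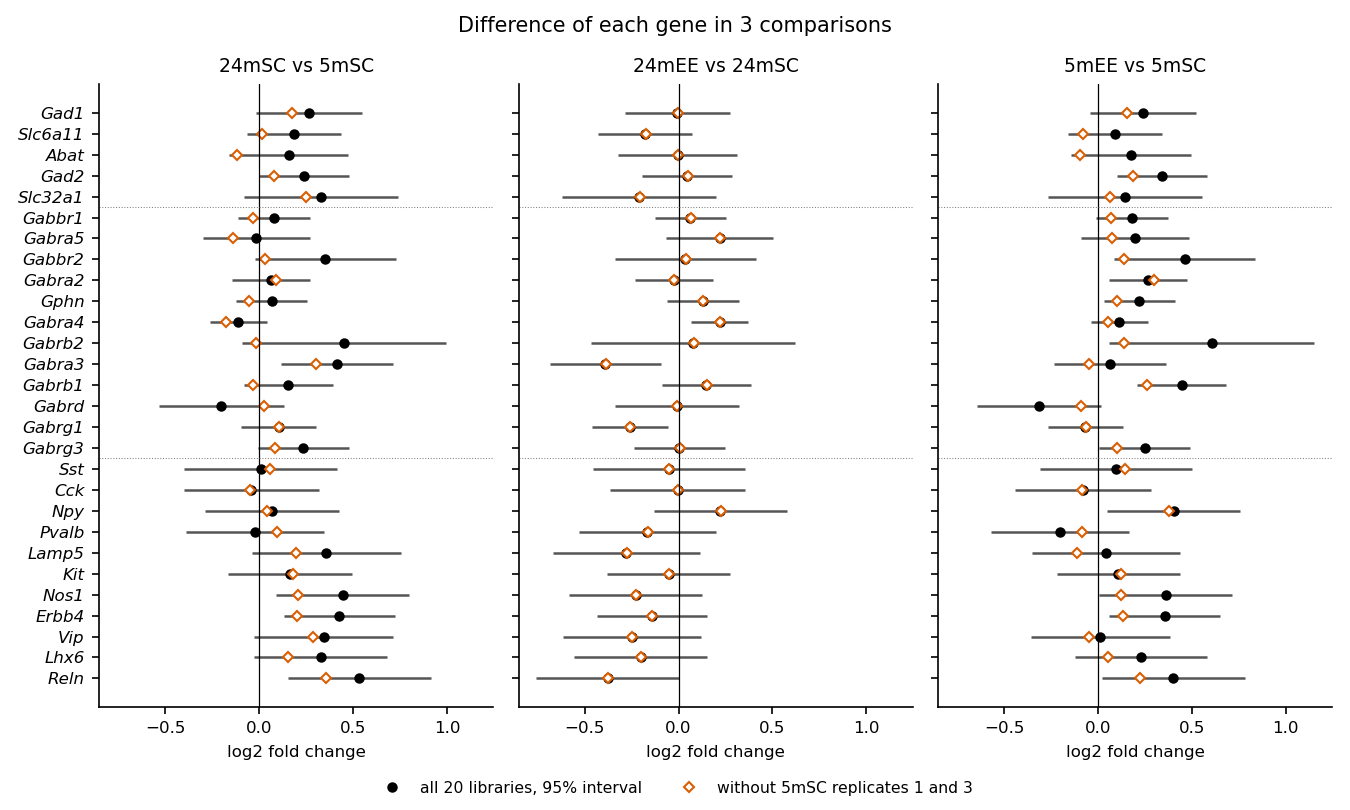
Log2 fold change of each of the 28 genes (rows, in 3 classes ordered by level) in 24mSC against 5mSC, 24mEE against 24mSC and 5mEE against 5mSC. Black points with bars are the fit of all 20 libraries with 95% intervals, and open diamonds are the fit without 5mSC replicates 1 and 3; the diamonds lie near the points in 24mEE against 24mSC and nearer to 0 than the points for most genes in the 2 comparisons with 5mSC.

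The genes spanned a wide range of levels. Levels per kb of exon divide by all annotated exons of a gene. A gene whose transcripts use only some of them comes out lower. On this scale the most abundant were the neuropeptide genes Sst at 206.2 ± 43.6 CPM per kb and Cck at 160.7 ± 29.5 CPM per kb (SD over the 20 libraries). They were followed by Gabbr1, which encodes the ligand-binding subunit of the GABA-B receptor, at 94.5 ± 8.36 CPM per kb. Gabrg3, Reln and Gabrg1 had the lowest levels, at 2.06, 2.69 and 3.06 CPM per kb. Within the 3 groups other than 5mSC, the coefficient of variation was smallest for Gabbr1 at 3.05% and largest for Pvalb at 22.6%, Reln at 21.6%, Kit at 18.8% and Vip at 18.3%.

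**Figure D3:**
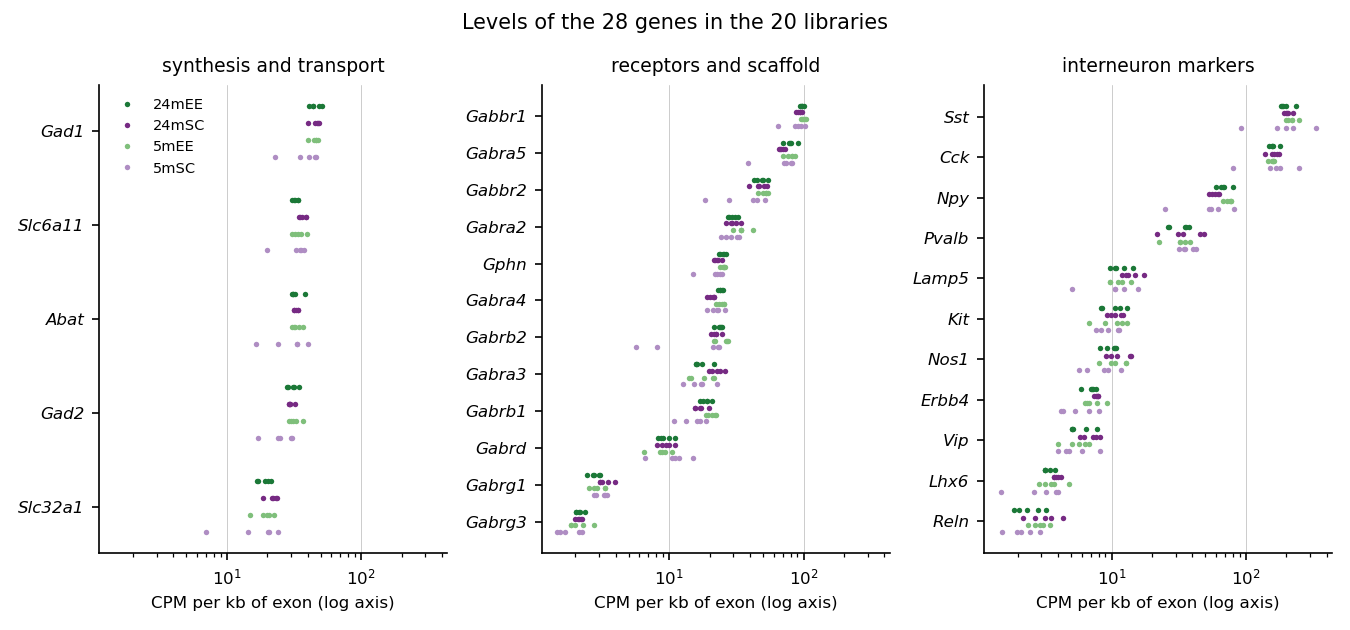
Levels of the 28 genes in CPM per kb of exon on a log axis, 1 point per library, with the 4 groups as rows of points below each other for each gene (24mEE, 24mSC, 5mEE and 5mSC from top to bottom). Sst and Cck lie above 100 CPM per kb in most libraries, and Gabrg3, Reln and Gabrg1 lie at the low end; the separate low points belong mostly to 5mSC.

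Among the genes of GABA synthesis and transport, no gene passed, and 4 of 5 log2 fold changes were negative in 24mEE against 24mSC, with a median of −0.007. Gad1, the decarboxylase that makes most of the cell's GABA (ENSMUSG00000070880, GRCm38 chromosome 2, 70553072 to 70602014, plus strand), was the most abundant of the class at 43.6 ± 6.22 CPM per kb. It had 336.3, 337.4, 368, 309.8 and 388.2 CPM in 24mEE, against 373.8, 305.3, 344.8, 358.8 and 365.9 CPM in 24mSC. It had 354.9, 342, 365.2, 305.5 and 350.2 CPM in 5mEE, against 353.1, 346.4, 173, 314.7 and 265.6 CPM in 5mSC. The groups overlapped in both pairs, and 5mSC replicate 3 was the lowest of the 20 libraries. The log2 fold change of 24mEE against 24mSC was −0.007 with a 95% interval of −0.29 to 0.27, and that of 24mSC against 5mSC was 0.27 (edgeR adjusted p = 0.269), or 0.18 with 18 libraries.

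Gad2, the decarboxylase of axon terminals (ENSMUSG00000026787, chromosome 2, 22622205 to 22693874, plus strand), had the smallest p of its class in both comparisons with 5mSC. Its levels were 184.2, 167.6, 185.3, 165.5 and 202.9 CPM in 24mEE, against 172, 169.9, 173.1, 173 and 188.8 CPM in 24mSC. They were 183.4, 176.7, 217.3, 170.5 and 192.7 CPM in 5mEE, against 145.9, 176.4, 99.8, 179.7 and 140.3 CPM in 5mSC. The groups overlapped, since 5mSC replicates 2 and 4 reached the level of 5mEE. The log2 fold change of 5mEE against 5mSC was 0.34 (95% interval 0.10 to 0.58, edgeR adjusted p = 0.223) and 0.18 in the 18-library fit (adjusted p = 0.738). That of 24mSC against 5mSC was 0.24 (adjusted p = 0.25) and 0.08 without these libraries.

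Slc32a1, the transporter that fills synaptic vesicles with GABA (ENSMUSG00000037771, chromosome 2, 158610767 to 158615748, plus strand), had 53.4, 47.8, 59.2, 47.3 and 56.8 CPM in 24mEE, against 65.3, 52.3, 60.8, 61.3 and 66.3 CPM in 24mSC. All 5 libraries of 24mEE lay below the 24mSC mean, but the groups overlapped, and the log2 fold change was −0.21 (95% interval −0.62 to 0.20, adjusted p = 0.999). In 5mEE it had 57.2, 55.7, 62.5, 41.8 and 51.9 CPM, against 67.4, 56.5, 19.6, 57.6 and 40.5 CPM in 5mSC. The value of 5mSC replicate 3 was the lowest of the 20 libraries and that of 5mSC replicate 1 the highest. The exons of Slc32a1 overlap the gene Gm14205 on the opposite strand over 24.9% of their length, and because the kit did not mark strand, reads there cannot be assigned to either gene.

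Slc6a11, a GABA transporter found mainly on astrocytes (ENSMUSG00000030307, chromosome 6, 114131241 to 114249952, plus strand), was 1 of 2 of the 28 genes whose 24mEE and 24mSC libraries did not overlap. It had 171.7, 172.5, 154.1, 160.7 and 161.1 CPM in 24mEE, against 176.6, 196.7, 197.7, 173.9 and 183.1 CPM in 24mSC. All 24mEE libraries were the lower ones, although the gap between the groups was narrow. The log2 fold change was −0.18 (95% interval −0.43 to 0.07, adjusted p = 0.997), and −0.18 with an adjusted p of 0.178 in the 18-library fit. With the mean log2 level of region markers as a covariate it was −0.05 for striatum, −0.09 for neocortex, −0.15 for dentate granule cells and −0.20 for thalamus and habenula, a score chosen after seeing the data. The enriched and standard groups of 5 months overlapped, at 154.1 to 198.3 CPM in 5mEE and 99.8 to 191 CPM in 5mSC. Astrocyte markers, 7 of 7 of which were tested and none of which was at 0 in any library, summed to 5066 to 5788 CPM in 24mEE and 5241 to 6118 CPM in 24mSC, and their part in the result was not tested. Abat, the transaminase that breaks GABA down, stood at 253.4 ± 25.7 CPM in 24mEE and 254.3 ± 8.59 CPM in 24mSC (SD, n = 5 each).

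Among the receptor genes, Gabra4 had the smallest p of the 28 genes in 24mEE against 24mSC. Gabra4 encodes the α4 subunit of GABA-A receptors outside the synapse, abundant on granule cells of the dentate gyrus (ENSMUSG00000029211, chromosome 5, 71569749 to 71658308, minus strand). It had 152.3, 151.1, 140.2, 145.8 and 144.7 CPM in 24mEE, against 122.1, 116.3, 131.1, 131.5 and 129.3 CPM in 24mSC. Every library of 24mEE lay above every library of 24mSC, with means of 146.8 ± 4.93 CPM in 24mEE and 126.1 ± 6.66 CPM in 24mSC (SD, n = 5 each). The log2 fold change was 0.22 ± 0.07 (SE) with a 95% interval of 0.07 to 0.37, and edgeR's adjusted p over all genes was 0.476 with 20 libraries and 0.0936 with 18.

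Gabra4 passed the test in 2 other fits. In the fit of only the 24mEE and 24mSC libraries its log2 fold change was 0.22 (adjusted p = 0.0403), and this fit called 1.17% of the genes it tested, Gabra4 being the only 1 of the 28. In limma-voom with sample quality weights it was 0.21 (adjusted p = 0.0401). At 5 months Gabra4 had 149.2, 134.7, 142.2, 154.4 and 156 CPM in 5mEE, against 137.8, 139.6, 116.7, 128.3 and 158 CPM in 5mSC. These groups overlapped, and the log2 fold change was 0.11 (adjusted p = 0.431). The difference between the 2 enrichment effects, tested as the interaction, was 0.11 (95% interval −0.11 to 0.32, adjusted p = 0.765). In 24mSC against 5mSC the log2 fold change of Gabra4 was −0.11 (adjusted p = 0.396), and −0.18 with 18 libraries (adjusted p = 0.14).

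In 24mEE against 24mSC the libraries of the groups did not overlap for 3.43% of all genes and for 2 of the 28 genes, Gabra4 higher and Slc6a11 lower in 24mEE. In 5mEE against 5mSC it was 1.62% of all genes and 1 of the 28, Gabrb1. In 24mSC against 5mSC it was 3.24% of all genes and 0 of the 28, and in 24mEE against 5mEE it was 2.76% and 0 of the 28.

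Gabra3, the α3 subunit (ENSMUSG00000031343, chromosome X, 72432681 to 72656848, minus strand), had its highest levels in 24mSC. It had 61.9, 84.4, 63.5, 61.8 and 68.5 CPM in 24mEE, against 78, 88.9, 102.6, 81.8 and 94.1 CPM in 24mSC. All 24mEE libraries lay below the 24mSC mean, and only 24mEE replicate 2 reached into the range of 24mSC. On the log2 scale the fold change of 24mEE against 24mSC was −0.39 (95% interval −0.69 to −0.09, adjusted p = 0.56), and −0.39 in the 18-library fit (adjusted p = 0.16). It had 55.3, 82.7, 84.5, 70.8 and 56.8 CPM in 5mEE, against 67.5, 88.7, 49.3, 68.7 and 59.9 CPM in 5mSC. The groups of 5 months covered about the same range. Its log2 fold change of 24mSC against 5mSC was 0.41 (adjusted p = 0.123), 0.30 with 18 libraries (adjusted p = 0.264), and 0.53 without 5mSC replicate 2, where it passed (adjusted p = 0.0297).

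The fold change of Gabra3 in fits that held a score of region markers differed with the score. In 24mEE against 24mSC it was −0.075 with the striatum score, −0.17 with the neocortex score, −0.27 with the dentate granule score and −0.39 with the thalamus score. In 24mSC against 5mSC the values with these 4 scores were 0.03, 0.25, 0.37 and 0.41, in the same order. For Gabra4 in 24mEE against 24mSC they were 0.26, 0.24, 0.13 and 0.21. The signs of Gabra3 and Gabra4 in this comparison were opposite, and each was kept under the 22 alternatives run for it. Both genes had an unadjusted p under 0.05 in this comparison, which makes a change of sign less likely.

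Gabra5, the α5 subunit typical of hippocampal pyramidal cells, was the most abundant GABA-A subunit of the set per kb, at 74.6 ± 10.98 CPM per kb. Its level was 238.2 ± 22.5 CPM in 24mEE and 204.8 ± 9.02 CPM in 24mSC (SD, n = 5 each), with 1 library of 24mEE inside the range of 24mSC. The fitted log2 fold change was 0.22 (95% interval −0.07 to 0.50, adjusted p = 0.976). Gabra2, the α2 subunit of synapses at the axon initial segment, stood at 265.6 ± 33.1 CPM in 5mEE and 220.6 ± 28.2 CPM in 5mSC, a log2 fold change of 0.27 (adjusted p = 0.228) and of 0.30 with 18 libraries (adjusted p = 0.646). It was the only 1 of the 28 genes at an unadjusted p under 0.05 in 24mEE against 5mEE, at −0.23 (adjusted p = 0.961).

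Of the β subunits, Gabrb1 (ENSMUSG00000029212, chromosome 5, 71658113 to 72149037, plus strand) lies head to head with Gabra4, and 0.76% of the exon length of Gabra4 overlaps it on the opposite strand. Gabrb1 had 266.5, 233, 288.7, 247.4 and 264 CPM in 24mEE, against 237.3, 213.7, 215.5, 234.2 and 271.9 CPM in 24mSC. It had 289.1, 270.6, 310.1, 302 and 260.8 CPM in 5mEE, against 150.2, 236, 184.9, 259.2 and 221.8 CPM in 5mSC. Every library of 5mEE lay above every library of 5mSC, the nearest at 260.8 CPM in 5mEE and 259.2 CPM in 5mSC. On the log2 scale the fold change was 0.45 (95% interval 0.21 to 0.68), the smallest p of the 28 genes in this comparison, with an adjusted p of 0.223. In the 18-library fit it was 0.26 (adjusted p = 0.59).

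Gabrb2, the β2 subunit of many synaptic receptors, was chosen for mention after its values had been seen, as were Gabra2, Gabra5, Gabrg1 and Gabrd. It had 137.1, 171.3, 175.5, 168 and 139.5 CPM in 5mEE, against 35.7, 149.7, 51.3, 147.9 and 133.6 CPM in 5mSC. The low values of 5mSC came from replicates 1 and 3, and the other libraries of 5mSC lay beside those of 5mEE. Its log2 fold change of 0.61, the largest of the 28 genes in this comparison, was 0.14 with 18 libraries (adjusted p = 0.773), and that of 24mSC against 5mSC was 0.45 with 20 libraries and −0.02 with 18.

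Among the γ and δ subunits, Gabrg1 (γ1) had 21.5, 24.1, 19.3, 23.7 and 21.2 CPM in 24mEE, against 24.2, 30.8, 27.6, 23.9 and 24.9 CPM in 24mSC. The groups touched only at 24mEE replicate 2, and the log2 fold change was −0.26 (adjusted p = 0.566). Gabrg3 stood at 25.5 ± 1.59 CPM in 24mEE and 25.4 ± 1.06 CPM in 24mSC, a difference smaller than the spread between libraries. Gabrd, the δ subunit that pairs with α4 outside the synapse, had 27.01 ± 3.18 CPM in 24mEE and 27.2 ± 3.19 CPM in 24mSC, a log2 fold change of −0.009 with a 95% interval of −0.34 to 0.32. This interval includes the value of Gabra4.

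Gabbr1 (ENSMUSG00000024462, chromosome 17, 37045966 to 37075067, plus strand), the ligand-binding GABA-B subunit, was the most abundant receptor gene per kb. It had 755.9, 734.9, 781.4, 742.3 and 756.1 CPM in 24mEE, against 711.3, 683.1, 750.4, 733.3 and 730.5 CPM in 24mSC. It had 759.2, 766.5, 806.3, 748.5 and 793.3 CPM in 5mEE, against 704.5, 746, 503.2, 796.7 and 666.5 CPM in 5mSC. Its values overlapped in both pairs of groups, and the log2 fold changes were 0.06 in 24mEE against 24mSC (95% interval −0.13 to 0.26), 0.08 in 24mSC against 5mSC (−0.11 to 0.27) and 0.18 in 5mEE against 5mSC (−0.01 to 0.37). Gabbr2, its partner that carries the receptor to the membrane and couples it to G proteins, was at 340.5 ± 22.3 CPM in 5mEE and 247 ± 90.5 CPM in 5mSC (SD, n = 5 each), and its log2 fold change of 0.46 was 0.14 with 18 libraries. Gphn, which encodes gephyrin, the scaffold that anchors GABA-A receptors at the synapse, was at 93.5 ± 4.26 CPM in 24mEE and 85.5 ± 4.53 CPM in 24mSC, a log2 fold change of 0.13 (95% interval −0.06 to 0.32).

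**Figure D4:**
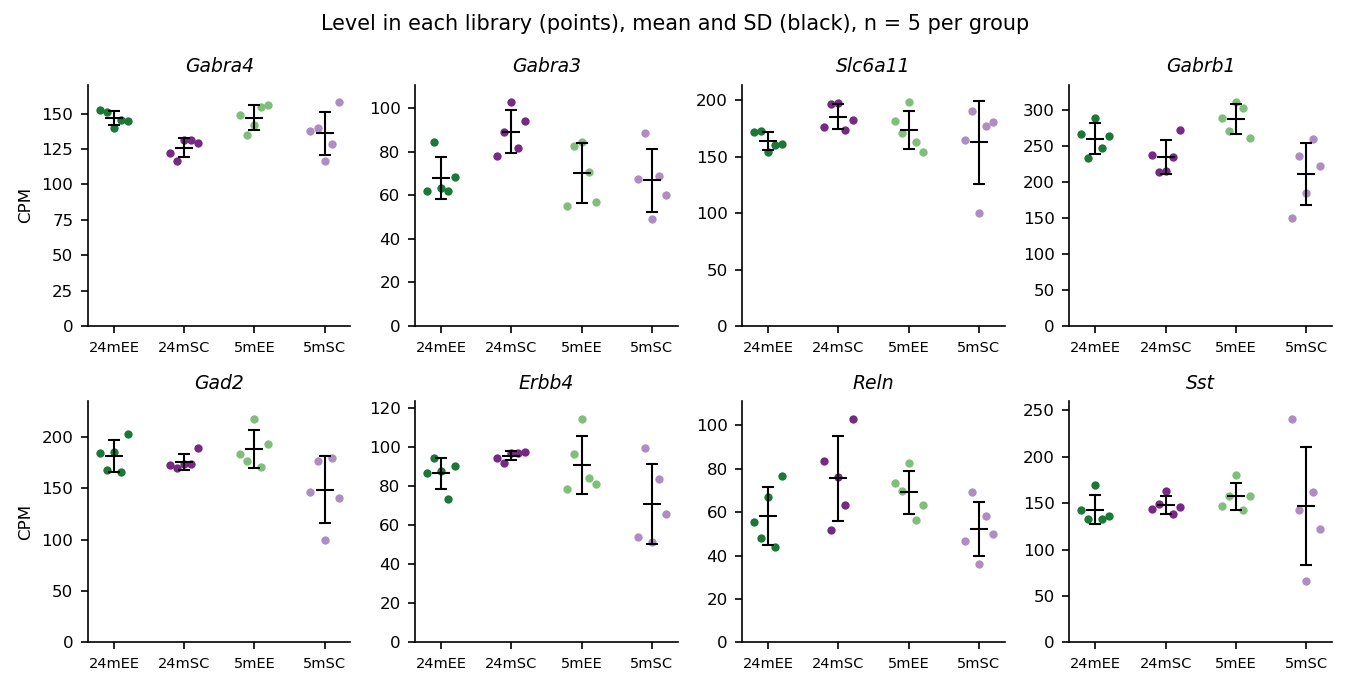
CPM of Gabra4, Gabra3, Slc6a11, Gabrb1, Gad2, Erbb4, Reln and Sst in each library; each point is 1 library, and black marks show the group mean with its SD (n = 5). Gabra4 lies at 140.2 to 152.3 CPM in 24mEE and 116.3 to 131.5 CPM in 24mSC with no overlap, whereas Sst in 5mSC runs from 66.5 to 240.6 CPM.

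None of the 11 interneuron markers passed in any comparison with 20 or 18 libraries. In 24mEE against 24mSC the log2 fold change was negative for 10 of the 11 genes, with a median of −0.17 and a range of −0.38 to 0.22, while 0 of the 11 had an unadjusted p under 0.05. With 18 libraries 2 of the 11 did (18.2%, against 13.8% of all genes), and in the fit of only these 2 groups 4 of the 11 (36.4%, against 14.7%). Over all genes tested 49.4% of fold changes were positive in this comparison. In 24mSC against 5mSC 9 of the 11 were positive (median 0.33), and 10 of 11 with 18 libraries (median 0.18). Markers of a class are carried by the same cells and libraries, so these counts are not independent.

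Several of these genes are classic targets of cyclic AMP signalling, so their start windows were searched for its element. The cyclic AMP response element, through which the transcription factor CREB acts on the somatostatin and VIP genes, is spelled TGACGTCA, and its short form TGACG. Both strands of the RefSeq start windows (GRCm38.p6) were searched, and 26 of the 28 genes had such a window. The full element was found in 1.79% of 32851 windows of all genes and among the 28 genes in Sst alone. The short form, which the full element contains, was found in 20.8% of all windows and in 6 of the 28 genes. The stretches around the matches in Sst, Vip, Cck, Gad2 and Nos1, and around the GC box (GGGCGG, in 35.7% of all windows) of Gabra4, are shown 5′ to 3′ on the strand of the gene, with the match in capitals. A match on the opposite strand reads CGTCA or CCGCCC.

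Sst: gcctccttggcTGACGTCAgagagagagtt
Vip: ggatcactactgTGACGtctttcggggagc
Cck: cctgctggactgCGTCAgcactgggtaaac
Gad2: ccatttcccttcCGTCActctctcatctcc
Nos1: aaaccagccatgCGTCAggcttggcttcag
Gabra4: aagcctctcatcCCGCCCtttctccaccta

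The stretch of Sst lies at chr16:23890874-23890903 (minus strand), with the element from base 48 to base 41 before the RefSeq start of its window. That of Vip lies at chr10:5639127-5639156 (plus strand), of Cck at chr9:121495724-121495753 (minus strand), of Gad2 at chr2:22622282-22622311 (plus strand), of Nos1 at chr5:117866697-117866726 (plus strand) and of Gabra4 at chr5:71658365-71658394 (minus strand). The RefSeq starts of Sst, Gad2 and Nos1 differ from the outer ends of these genes in the annotation used for their spans, so that these 3 stretches lie inside the spans, whereas those of Vip, Cck and Gabra4 lie outside the spans of their own genes and that of Gabra4 lies within the span of Gabrb1. A match describes the letters in the window and is not a measured binding site. For the 6 genes with the short form the log2 fold changes in 24mEE against 24mSC ran from −0.25 for Vip to 0.08 for Gabrb2.

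Sst, the somatostatin gene of dendrite-targeting interneurons (ENSMUSG00000004366, chromosome 16, 23889573 to 23890958, minus strand), was the most abundant of the 28 genes per kb. It had 142.9, 133.1, 169.4, 132.7 and 135.7 CPM in 24mEE, against 144, 149.1, 162.9, 138.3 and 145.4 CPM in 24mSC. It had 147.2, 157.6, 180.7, 143 and 157.8 CPM in 5mEE, against 240.6, 142.7, 66.5, 161.5 and 122.1 CPM in 5mSC. The highest and the lowest value of the 20 libraries both belonged to 5mSC, in replicates 1 and 3. The fitted log2 fold changes were −0.05 in 24mEE against 24mSC (95% interval −0.46 to 0.36), 0.008 in 24mSC against 5mSC and 0.10 in 5mEE against 5mSC, and the 18-library fit gave −0.05 ± 0.08, 0.055 ± 0.09 and 0.14 ± 0.09 (SE).

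Pvalb, the parvalbumin gene of fast-spiking interneurons (ENSMUSG00000005716, chromosome 15, 78191114 to 78206400, minus strand), had the largest coefficient of variation within groups. It had 28, 39.5, 36.3, 37 and 27.3 CPM in 24mEE, against 32.4, 50.6, 35.5, 47.6 and 22.6 CPM in 24mSC. It had 23.4, 39.6, 36.5, 33.4 and 33.8 CPM in 5mEE, against 42.2, 36.8, 44.4, 33.1 and 35.9 CPM in 5mSC. Libraries of 24mSC alone covered the range of all 20. On the log2 scale the fold changes were −0.17 in 24mEE against 24mSC (95% interval −0.53 to 0.20), −0.02 in 24mSC against 5mSC (−0.39 to 0.34) and −0.20 in 5mEE against 5mSC (−0.57 to 0.16).

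Vip, a neuropeptide of interneurons that contact other interneurons (ENSMUSG00000019772, chromosome 10, 5639218 to 5647617, plus strand), had 17.3, 26.5, 17.6, 17.1 and 21.9 CPM in 24mEE, against 19.8, 26, 27.9, 24.6 and 21.1 CPM in 24mSC. It had 13.7, 23.2, 21.7, 19.3 and 17.3 CPM in 5mEE, against 20.5, 27.9, 13.6, 16.3 and 15.5 CPM in 5mSC. Replicate 2 was the highest of its group in 24mEE, 5mEE and 5mSC. Its log2 fold change was −0.25 in 24mEE against 24mSC (95% interval −0.62 to 0.12, adjusted p = 0.999) and 0.345 in 24mSC against 5mSC (95% interval −0.03 to 0.715, adjusted p = 0.278).

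Npy, the neuropeptide Y gene, which interneurons of several types express, was the only marker with a positive value in 24mEE against 24mSC and was chosen for mention after its values had been seen. It had 38.2, 34.1, 45.7, 39.2 and 36.8 CPM in 24mEE, against 30.2, 33.1, 35.9, 35.2 and 31.9 CPM in 24mSC. All 24mEE libraries lay above the 24mSC mean, with overlap at 24mEE replicate 2. It had 38.3, 43.2, 43.6, 41.2 and 43.6 CPM in 5mEE, against 45.8, 31.3, 14.1, 35.3 and 30.01 CPM in 5mSC. Without replicates 1 and 3, the 5mSC libraries lay at 30.01 to 35.3 CPM, all below those of 5mEE. The fitted log2 fold change of 5mEE against 5mSC was 0.40 (adjusted p = 0.261), and 0.38 ± 0.08 (SE) with an adjusted p of 0.387 in the 18-library fit, whereas it was 0.23 without 5mSC replicate 3 alone. Between 24mEE and 24mSC it was 0.22 with both 20 and 18 libraries (adjusted p = 0.999 and 0.155).

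Reln encodes reelin, a secreted matrix protein of interneurons near the hippocampal fissure (ENSMUSG00000042453, chromosome 5, 21884454 to 22344702, minus strand). It had 55.6, 48.1, 67.2, 44.2 and 76.6 CPM in 24mEE, against 83.4, 51.9, 76.4, 63.5 and 103 CPM in 24mSC. It had 73.3, 70, 82.5, 56.3 and 63.4 CPM in 5mEE, against 46.9, 69.1, 36.1, 58.5 and 50.04 CPM in 5mSC. The groups overlapped in each pair, and 24mSC alone ran from 51.9 to 103 CPM. On the log2 scale the fold change was −0.38 in 24mEE against 24mSC (95% interval −0.76 to 0.004, adjusted p = 0.812), the smallest p of the markers there. As a covariate the striatum score gave −0.11, the neocortex score −0.42, the dentate granule score −0.43 and the thalamus score −0.38. For Reln the value was 0.53 in 24mSC against 5mSC (adjusted p = 0.121), 0.36 with 18 libraries, and 0.65 without 5mSC replicate 2, where it passed (adjusted p = 0.0446). For the interaction Reln had the smallest p of the 28 genes, with a value of −0.78 (95% interval −1.32 to −0.24, adjusted p = 0.621).

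Erbb4 encodes the neuregulin receptor that is found mainly on parvalbumin cells (ENSMUSG00000062209, chromosome 1, 68032186 to 69108059, minus strand). It had 86.7, 94.6, 88, 73.6 and 90.2 CPM in 24mEE, against 94.5, 91.9, 96.8, 97.1 and 97.6 CPM in 24mSC. It had 78.7, 96.4, 114.5, 84.3 and 81 CPM in 5mEE, against 53.9, 99.7, 51.5, 83.8 and 65.9 CPM in 5mSC. The libraries of 24mSC lay close together, and 5mSC replicates 1 and 3 were the lowest of the 20. Its log2 fold change was 0.43 in 24mSC against 5mSC (95% interval 0.13 to 0.72, adjusted p = 0.113), the smallest p of the 28 genes, but 0.20 with 18 libraries (adjusted p = 0.349). Without 5mSC replicate 2 but with replicates 1 and 3, the value was 0.58 and Erbb4 passed (adjusted p = 0.0161). In 5mEE against 5mSC it was 0.36 (adjusted p = 0.25), and 0.13 with 18 libraries.

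The other markers had intervals that included 0 in 24mEE against 24mSC. Cck, expressed in basket cells and also in pyramidal cells, was at 209 ± 15.3 CPM in 24mEE and 209.8 ± 18.3 CPM in 24mSC, a log2 fold change of −0.005 (95% interval −0.36 to 0.35). Lamp5, a marker of neurogliaform cells, was at 34.01 ± 5.50 CPM in 24mEE and 41.3 ± 6.37 CPM in 24mSC (−0.28, adjusted p = 0.999). Lhx6, a transcription factor of interneurons from the medial ganglionic eminence, was at 16.2 ± 1.26 CPM in 24mEE and 18.7 ± 0.907 CPM in 24mSC (−0.20). Kit, a receptor kinase, was at 92.3 ± 17.5 CPM in 24mEE and 95.7 ± 10.6 CPM in 24mSC (−0.05), and Nos1, the neuronal nitric oxide synthase, at 109.5 ± 12.4 CPM in 24mEE and 128.2 ± 24.7 CPM in 24mSC (−0.23; SD, n = 5 each).

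Between 24mEE and 5mEE, groups without the 2 libraries that stood apart, 20 of the 28 genes had a negative and 8 a positive log2 fold change, with a median of −0.04 and a range of −0.245 to 0.11. Gad1 was at 0.02 (95% interval −0.26 to 0.30), Gad2 at −0.055 (−0.30 to 0.19) and Pvalb at 0.01 (−0.35 to 0.38). For the interaction, 23 of the 28 values were negative with 20 libraries and 22 of 28 with 18, with medians of −0.255 and −0.14. The interaction subtracts the 5mEE against 5mSC difference, so that 5mSC replicates 1 and 3 enter it as well.

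Markers of neighbouring brain regions and of hippocampal cell types were followed in the groups of 24 months. The mean log2 CPM of 7 neocortex markers, of which 7 were tested and none was at 0 in any library, was 3.65 to 4.415 in 24mEE and 4.02 to 4.52 in 24mSC, and their summed level was 134.7 to 219.6 CPM in 24mEE and 186.7 to 239.4 CPM in 24mSC. All 7 had negative log2 fold changes in 24mEE against 24mSC, with a median of −0.44. The striatum score was 2.92 to 3.46 in 24mEE and 3.46 to 3.75 in 24mSC, but the summed level of its 8 markers, none at 0 in any library, was 189.5 to 204.9 CPM in 24mEE and 185 to 198.3 CPM in 24mSC, and 3 of the 8 were positive. All 6 dentate granule markers were positive (median 0.33), with sums of 359.4 to 450.7 CPM in 24mEE and 177.7 to 385.4 CPM in 24mSC, and 7 of 8 markers of CA pyramidal cells were positive (median 0.30). None of these markers passed the test in 24mEE against 24mSC with 20 libraries, where 0% of all genes passed. In the fit of only these 2 groups, which called 1.17% of the genes it tested, 1 of the 7 neocortex and 1 of the 8 striatum markers passed. In that fit 0 of the dentate granule and 0 of the CA pyramidal markers passed. Fits with a marker score as a covariate were run over all genes, and signs were compared for 27 gene and comparison pairs. Of these 27, 0 changed sign. Each pair had an unadjusted p under 0.05 or the smallest p of its class in the 20-library fit. Pairs chosen this way are less likely to change sign, so the count does not speak for the other pairs. The log2 fold change of Gabrg1 in 24mEE against 24mSC was −0.25 with the striatum score, −0.20 with the neocortex score and −0.18 with the dentate granule score. That of Erbb4 in 24mSC against 5mSC was 0.16, 0.31 and 0.40 with these scores. No fit with a CA pyramidal score was run.

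The region markers also varied within groups, and the library with the highest neocortex score was replicate 2 in 24mEE, 5mEE and 5mSC and replicate 4 in 24mSC. The highest Lamp5 level lay in that same library in 4 of 4 groups, as for 0.959% of all genes, and the highest Vip level in 3 of 4 groups, as for 4.35% of all genes. None of the 5 genes of GABA synthesis and transport did so in more than 2 groups.

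**Figure D5:**
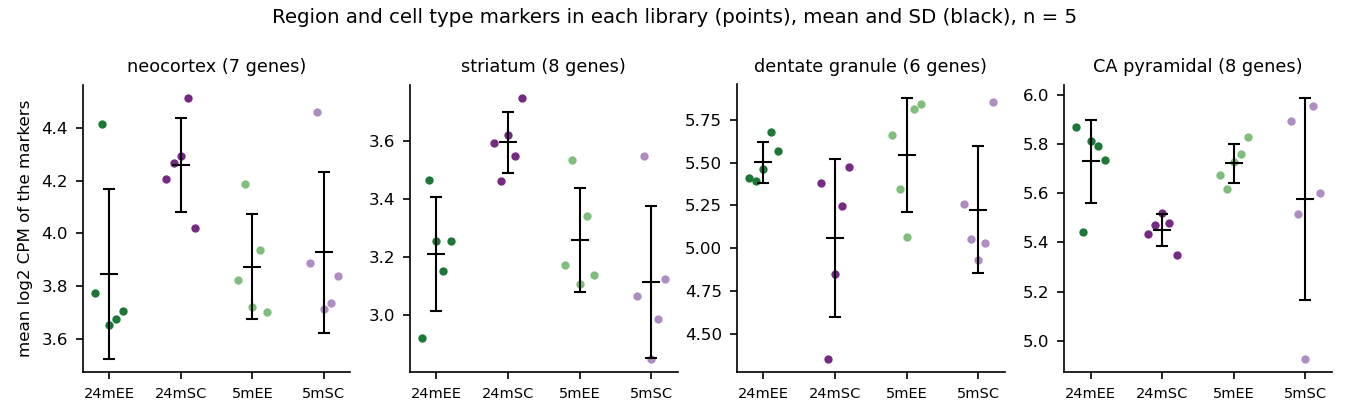
Mean log2 CPM of the markers of neocortex, striatum, dentate granule cells and CA pyramidal cells in each library; each point is 1 library, and black marks show the group mean with its SD (n = 5). The neocortex score of 24mEE replicate 2, at 4.415, lies inside the range of 24mSC, whereas the other 24mEE libraries lie at 3.65 to 3.77.

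Of 26 other genes of GABA signalling, such as other receptor subunits, transporters, chloride carriers and receptor-associated proteins, 23 were tested and 0 passed in any of the 5 comparisons. Their smallest adjusted p in 24mSC against 5mSC was 0.0831, for Slc6a13, a GABA transporter of the meninges, at a log2 fold change of −0.76. Between 24mEE and 24mSC it was 0.271, for Gabrq at −1.74, and in 5mEE against 5mSC 0.223, for Gabarap at −0.34. Of 28 other interneuron genes 26 were tested and 0 passed, with Satb1 nearest in 24mEE against 24mSC (−0.50, adjusted p = 0.41) and Kcnc1 in 5mEE against 5mSC (0.29, adjusted p = 0.225). Of 17 receptors and ligands of the marker peptides and factors, 17 were tested and 0 passed, with Sstr1 nearest in 24mSC against 5mSC (0.69, adjusted p = 0.126), Kitl in 24mEE against 24mSC (−0.46, adjusted p = 0.367) and Vldlr in 5mEE against 5mSC (0.24, adjusted p = 0.223). In the 18-library fit of 24mSC against 5mSC, which called 2.14% of the genes it tested, 1 of the 23 passed, the transporter gene Slc6a12 (−1.52, adjusted p = 0.0453), and 1 of the 26, the antisense gene Dlx6os1 (−0.40, adjusted p = 0.0437), whose reads cannot be told apart from those of the opposite strand. In the fit of only the 24mEE and 24mSC libraries, which called 1.17%, 1 of the 17 passed, the somatostatin receptor gene Sstr1 (−0.78, adjusted p = 0.0285). These 3 genes were named after their values had been seen.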

How the data were processed

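Hippocampal RNA of 20 samples was sequenced after the unstranded TruSeq RNA Library Preparation Kit v2, with reads of 50 nt. The deposited count table holds whole-number counts per gene, made by the authors on GRCm38, whose processing notes name STAR 2.4.1d, featureCounts 1.4.6-p4 and bcl2fastq 1.8.2; no column lacked a sample. The deposited RPKM table was not used here. Symbols were found for 98.9% of identifiers. Groups came from the age and housing labels, and replicate numbers only follow the order of the samples.

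Counts were fitted in R 4.3.3 with edgeR 4.0.16 (TMM, filterByExpr with a minimum count of 10, quasi-likelihood test) in 1 model of the 20 libraries with 5 contrasts. P-values were Benjamini-Hochberg adjusted over 16692 genes, with a threshold of 0.05, and the code was tested on simulated data. Alternatives used DESeq2 1.42.0, limma 3.58.1 (voom with sample quality weights), other filters, fewer libraries and marker scores as covariates. A marker score is the mean log2 CPM of a list with a prior count of 2. Promoter windows came from RefSeq (GRCm38.p6).

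The members, lists and tests were chosen with earlier results of these data known. Per-library values are given for the member with the smallest p of each class in each of 3 comparisons, the most abundant member per kb of each class, and Gad1, Gad2, Slc32a1, Pvalb, Sst and Vip; those of Gabrb2, Gabrg1 and Npy were added after their values had been seen. Of the other lists the gene with the smallest p is named, except 1 that is not reported here. Library totals were 10.963 to 34.107 M counts (M, mega), and their depth limits the precision of low genes.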

Additional observations from a re-analysis of the deposited data

Results flagged for a closer look

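In 4 of 112 sets of 5 libraries, 1 set per gene and group, a single library lay far from the other 4. Chance gives about 1 in 20 such sets. Gad2 had 189 CPM in 24mSC replicate 5, against 170 to 173 CPM in the other 24mSC libraries. Abat had 298 CPM in 24mEE replicate 3, against 238 to 251 CPM in the others of its group, and Sst had 169 CPM in the same library, against 133 to 143 CPM in the others. Gabra5 had 114 CPM in 5mSC replicate 3, the library rich in mitochondrial ribosomal RNA, against 214 to 244 CPM in the others.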

How the results depend on the processing

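The count of members that passed was 0 in all 5 comparisons, and 3 of 119 counts under alternatives differed. In 24mEE against 24mSC the count was 1 with limma-voom quality weights and 1 in the fit of only these groups, Gabra4 both times, and the cause was not tested. Leaving out 1 library at a time gave 0 to 3 members in 24mSC against 5mSC, with 3 (Gabra3, Reln and Erbb4) without 5mSC replicate 2, where 1127 of all genes passed. That fit kept 5mSC replicates 1 and 3, and without them no member passed. Of 639 fold changes of 27 gene and comparison pairs under alternatives, 0 changed sign and 5 crossed the threshold. The 27 pairs had an unadjusted p under 0.05 or the smallest p of their class, which makes a change of sign less likely. The totals of 119 and 639 hold repeats. In comparisons that involve 5mSC, the fit without 5mSC replicate 3 was counted as its own setting and again among fits that left out 1 library. Members outside the 27 pairs did change sign, such as Abat in 24mSC against 5mSC, at 0.157 with all libraries and −0.117 with 18 libraries. In that comparison 23 of the 28 members were positive with all libraries and 20 of the 28 with 18 libraries. Over all genes, 24mSC against 5mSC called 134 genes, but 759 with DESeq2's Wald test, 306 with voom, 59 without a filter, 3 in the fit of these groups alone, 363 with 18 libraries, 2, 43 and 79 with the striatum, neocortex and dentate scores, 599 without 5mSC replicate 3 alone and 274 with the thalamus score. The last 2 settings were chosen after seeing the data. In 24mEE against 24mSC 0 genes passed, but 31 with DESeq2's Wald test, 379 with voom, 187 in the fit of these groups alone, 10 with 18 libraries and 6 without 5mSC replicate 3. In 5mEE against 5mSC 0 passed, but 30 with DESeq2's Wald test, 1 with the neocortex score and 1 without 5mSC replicate 3. For the interaction 0 passed, but 6 with the Wald test and 1 each with 18 libraries, the neocortex score and the dentate score. In 24mEE against 5mEE 18 passed, against 39, 162, 9, 52, 97, 45 and 31 with the Wald test, voom, no filter, the groups alone, 18 libraries, 19 libraries and the thalamus score. Without a filter the median of all genes was −0.126 in 24mSC against 5mSC, −0.136 in 5mEE against 5mSC and 0.171 for the interaction. The labels give no pairing of libraries between groups and no sequencing run, so neither entered the fits. The tests of the paper did account for the run.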
